A study of Homo sapiens with 4 samples.

Results

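The map described here is the deposited list of EZH2 peaks from HEK293 cells with an induced wild-type H3.1 histone (H3.1-WT), limited to chromosomes 1 to 22. All 29018 autosomal peaks were taken, with no filter, out of 31077 in that list and 66093 in the lists of both genotypes, H3.1-WT and H3.1-K27M. HEK293 is an established human embryonic kidney line, and the histone came from a lentiviral construct, with selection in 0.5 mg/ml G418 and induction with 1 µg/ml doxycycline. The control reaction, labelled HRP, came from the same H3.1-WT cells with the same construct and treatment but received the HRP-coupled anti-rabbit secondary antibody in place of the primary. The H3.1-K27M cells, used only for comparison, carried the mutant histone in the same way and had the same selection and induction, with 1 EZH2 and 1 HRP library of their own. Each reaction used 200000 cells, and there was 1 library per antibody, so nothing below rests on replicates and samples were not tested against each other. The sources used here do not say whether the infected cells were a pool or a clone. The assay was CUT&RUN, in which permeabilised cells are given an antibody and a nuclease that binds it, so that DNA cut free near the target can be sequenced.

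EZH2 is the methyltransferase subunit of Polycomb repressive complex 2 (PRC2), which methylates lysine 27 of histone H3. PRC2 is best known for holding developmental regulators silent in cells of other lineages, and its complexes are recruited mainly to unmethylated CpG-rich DNA, from which the mark can spread over many kilobases. In a kidney-derived line, genes of neuronal, endocrine and mesodermal fates are typical Polycomb targets.

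Each deposited peak has a start and an end on hg19 and a fold enrichment, the linear ratio of signal to background that the authors' caller gave with the HRP library as control. It also has a −log10 q value from the same caller. Both are the authors' own values and are used only to describe and rank peaks within this list. Width is the number of bases from start to end. Depth is unknown because the list holds no read counts, and weak peaks in particular depend on it.

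Gene names are given as landmarks. No hg19 gene annotation was used here, so names at positions come from general knowledge of where genes lie, and whether a peak covers a promoter, exon or intron was not read. Of the 201 symbols used, 201 lay on the same chromosome and within 3 Mb of the given position in a RefSeq table of GRCh38.p14, which is a coarse check.

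Many of the widest peaks of the map lay at genes of neuronal and endocrine development, and others lay at positions with no gene name assigned. Promoters are shown first for 5 genes, those of the widest named peaks with an entry in the promoter table. The promoter of TCHH is shown beside them because its peak has the highest fold enrichment of the map. Promoters at the next peaks by fold enrichment are not shown. Each line is the 250 bases before the gene's start, 5′ to 3′ on the gene's strand, from RefSeq GRCh38.p14, with every CG in capitals.
SKOR2: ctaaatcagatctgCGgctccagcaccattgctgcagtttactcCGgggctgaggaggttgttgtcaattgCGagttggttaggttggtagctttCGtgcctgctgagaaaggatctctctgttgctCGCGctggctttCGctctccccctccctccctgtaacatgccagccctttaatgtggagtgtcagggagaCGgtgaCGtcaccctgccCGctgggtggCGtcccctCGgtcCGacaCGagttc
NXPH1: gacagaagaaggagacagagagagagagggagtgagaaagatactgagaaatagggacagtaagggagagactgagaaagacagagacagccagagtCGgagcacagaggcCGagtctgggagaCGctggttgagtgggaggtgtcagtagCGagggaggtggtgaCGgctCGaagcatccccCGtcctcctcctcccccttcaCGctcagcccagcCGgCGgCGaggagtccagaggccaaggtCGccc
POU4F2: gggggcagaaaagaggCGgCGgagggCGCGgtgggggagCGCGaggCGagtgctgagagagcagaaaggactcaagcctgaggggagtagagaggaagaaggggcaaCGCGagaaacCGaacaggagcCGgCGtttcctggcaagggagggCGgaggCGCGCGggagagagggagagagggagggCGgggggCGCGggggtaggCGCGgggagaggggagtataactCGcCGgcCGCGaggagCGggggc
NEUROD1: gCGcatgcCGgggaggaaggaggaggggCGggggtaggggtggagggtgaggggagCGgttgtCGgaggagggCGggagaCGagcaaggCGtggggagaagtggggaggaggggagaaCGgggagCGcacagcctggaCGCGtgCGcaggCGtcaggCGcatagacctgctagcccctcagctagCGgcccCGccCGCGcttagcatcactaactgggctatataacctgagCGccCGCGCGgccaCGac
LHX3: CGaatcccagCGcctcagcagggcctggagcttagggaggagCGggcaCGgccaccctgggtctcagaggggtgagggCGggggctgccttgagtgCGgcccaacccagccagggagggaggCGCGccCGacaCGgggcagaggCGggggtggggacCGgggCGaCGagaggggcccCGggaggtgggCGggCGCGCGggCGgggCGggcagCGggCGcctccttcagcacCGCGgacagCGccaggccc
TCHH: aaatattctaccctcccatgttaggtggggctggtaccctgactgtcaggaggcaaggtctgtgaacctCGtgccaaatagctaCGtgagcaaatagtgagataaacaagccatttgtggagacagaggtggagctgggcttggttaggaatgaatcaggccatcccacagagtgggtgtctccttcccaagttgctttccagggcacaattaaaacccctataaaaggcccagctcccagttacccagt
The motif counted is CG, which reads the same on both strands. POU4F2 and LHX3 each have 26 CG in this stretch, a number reached by 19.8% of the autosomal promoters in that table. NEUROD1 has 24, reached by 23.9%, SKOR2 has 14, reached by 45.0%, and NXPH1 has 12, reached by 48.6%. TCHH has 2 CG, and 85.3% of promoters have at least as many. Thus 3 of the 5 are CpG-rich over these bases, 2 are near the middle of all promoters and TCHH is at the low end. Whether these bases lie inside the hg19 peaks was not read.

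By width, the map was a large number of short peaks and a small number of broad ones. Widths ran from 261 to 27533 bases with a median of 778. The peaks covered 33.1 Mb together, 1.15% of the autosomes. In classes that hold their lower limit, peaks under 0.5 kb numbered 8653, or 29.8%, and those of 0.5 to 1 kb numbered 9313, or 32.1%. Another 7296 peaks, 25.1%, were 1 to 2 kb wide and 3236, 11.2%, were 2 to 5 kb. Only 457 peaks, 1.58%, were 5 to 10 kb wide and 63, 0.217%, reached 10 kb. Peaks of 5 kb or more therefore numbered 520, a share of 1.79% with a 95% Wilson interval of 1.65% to 1.95%. Such intervals hold counting error alone and take peaks to be independent.

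Covered length was spread differently from peak number. The 17966 peaks under 1 kb were 61.9% of peaks and 29.7% of covered length, whereas the 520 peaks of 5 kb or more were 11.6% of covered length. The 5611 widest peaks, 19.3% of all, each at least 1572 bases wide, held 50% of the covered bases. The class limits are round numbers and not breaks in the distribution: the narrowest peak inside the 5 kb limit, of 5000 bases, had a fold enrichment of 3.61, and the widest outside it, 1 base narrower, had 6.95. At the 10 kb limit the corresponding peaks, of 10018 and 9976 bases, had fold enrichments of 17.5 and 11.6.

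**Figure D1:**
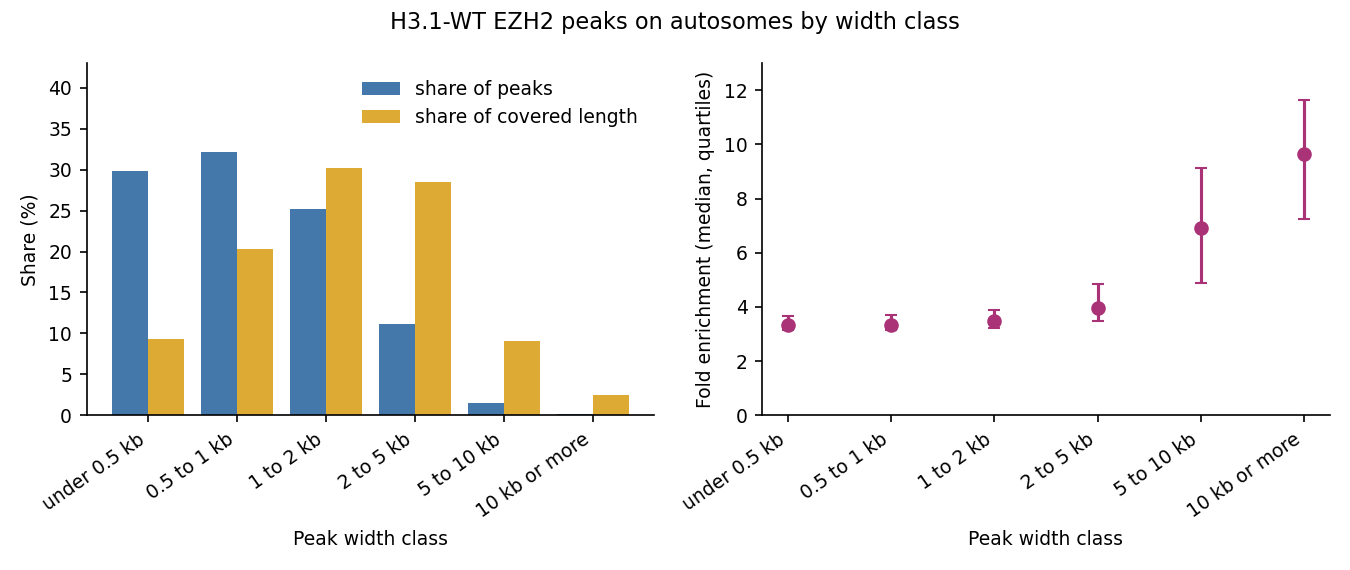
Left, share of autosomal H3.1-WT EZH2 peaks and of covered length in 6 width classes (bars, %, from 0). Right, median fold enrichment of each class with its quartiles (points and bars). Median fold enrichment is 3.35 in both classes under 1 kb, 6.91 at 5 to 10 kb and 9.65 at 10 kb or more.

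Fold enrichment was nearly flat over narrow widths and higher in broad peaks. The median fold enrichment was 3.35 under 0.5 kb, 3.35 at 0.5 to 1 kb, 3.47 at 1 to 2 kb, 3.95 at 2 to 5 kb, 6.91 at 5 to 10 kb and 9.65 at 10 kb or more. Quartiles ran from 3.16 to 3.67 in the narrowest class and from 7.25 to 11.6 in the widest. The interquartile ranges of these classes do not overlap, while single narrow peaks reached a fold enrichment of 11.8. The median of peaks of 5 kb or more, 7.08, was 2.11 times that of peaks under 1 kb. The q values followed: 78.1% of peaks of 5 kb or more had a −log10 q of at least 5, against 2.31% of peaks under 1 kb. Of the narrow peaks, 66.3% had a −log10 q under 2, close to the lowest value in the list, 1.01. The sources used here do not say how the caller set a single fold value for a whole peak.

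Over all 29018 peaks, Spearman's rank correlation of width with fold enrichment was 0.274, and Pearson's correlation of the logarithms was 0.422. These are descriptions, since all peaks share 1 pair of libraries. It differed between width classes: the rank correlation was 0.0035 among peaks under 1 kb, 0.191 at 1 to 2 kb, 0.322 at 2 to 5 kb and 0.2204 at 5 to 10 kb. Among the 63 widest it was 0.0084. It was above 0 on each of the 22 chromosomes, from 0.154 on chromosome 21 to 0.334 on chromosome 22. Within strata of −log10 q it lay between −0.046 and 0.328, with the highest value among the 710 peaks at a −log10 q of 10 or more. Fold enrichment and −log10 q themselves had a rank correlation of 0.938, and that topmost stratum holds the map's highest fold enrichment, 24.9, and its lowest, 1.14.

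Read from the other side, high fold enrichment picked out broad peaks. The 20997 peaks with a fold enrichment from 3 to 4 were 72.4% of the map, had a median width of 723 bases, and 0.286% of them reached 5 kb. From 6 to 10 there were 769 peaks with a median width of 3565 bases, 27.6% of which reached 5 kb. At 10 or more there were 180 peaks with a median width of 6044 bases, and 115 of them, 63.9%, reached 5 kb. Of the 1000 widest peaks, 515 were also among the 1000 of highest fold enrichment, 51.5% of each list.

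**Figure D2:**
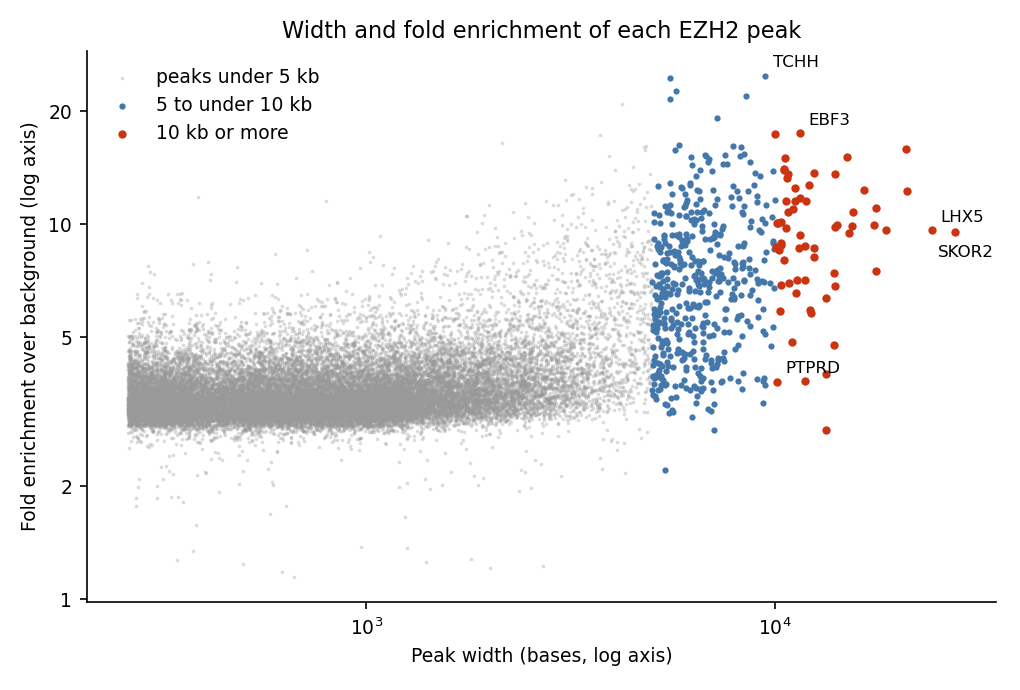
Width of each autosomal peak in bases (x, log axis) against its fold enrichment (y, log axis), with peaks of 5 kb or more in blue and of 10 kb or more in red. Most peaks form a flat band near the median fold enrichment of 3.43, and the 5 highest values, up to 24.88 at TCHH, belong to peaks of 5 kb or more.

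The 5 highest fold enrichments of the map all belonged to peaks between 5 and 10 kb wide. The first was a peak of 9442 bases at 1q21.3 (chr1:152078039-152087480), at TCHH, which encodes the hair follicle protein trichohyalin, with a fold enrichment of 24.9 and a −log10 q of 75.3. SORCS3, a sorting receptor of neurons, followed with 24.6 over 5525 bases (chr10:106398310-106403834). FGF3, a fibroblast growth factor of the inner ear and other organs, had 22.7 over 5710 bases (chr11:69630875-69636584). TMEM132E, a transmembrane protein gene linked to hearing loss, had 22.1 over 8487 bases, and GALR1, a receptor for the neuropeptide galanin, had 21.6 over 5518 bases. None of these 5 genes encodes a transcription factor, a count too small to set against other peaks.

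The weakest fold enrichments had another distribution. Of the 81 peaks with a fold enrichment under 2.5, 41 (50.6%) lay within 2 Mb of a centromere band, against 4.30% of all peaks. Single bands held several of them: 10 at 4p11, 9 at 2p11.1, 8 at 1q21.1 and 7 at 1q42.13. The lowest of all was 1.14 over 664 bases at 19q11, with a −log10 q of 12.2. The highest −log10 q of the map, 112, belonged to a peak of 526 bases at 21p11.2 with a fold enrichment of only 3.44, and the next, 99.7, to a peak of 1445 bases at 16p11.2 with one of 3.37. Both lie within 2 Mb of a centromere band. Of the 81 peaks of low fold enrichment, 12 had a −log10 q of at least 5. No filter on repeats or mappability was applied here, and the part of position near a centromere in these values was not tested.

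The 20 widest peaks ranged from 13352 to 27533 bases. The widest lay at SKOR2 on 18q21.1 (chr18:44764442-44791974), with a fold enrichment of 9.51 and a −log10 q of 19.1. SKOR2 is a transcriptional corepressor gene of the SKI family, known from cerebellar Purkinje cells. The next, of 24168 bases at 12q24.13 (chr12:113898240-113922407), lay at LHX5, a LIM homeodomain factor of the developing forebrain, with a fold enrichment of 9.65. ONECUT3, a cut homeodomain factor of neurons and endocrine cells, had 18709 bases at 19p13.3 (chr19:1746709-1765417) with 9.63.

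Further down the same ranking, NXPH1, a secreted ligand of neurexins, had 17676 bases (chr7:8468198-8485873) and a fold enrichment of 7.52. POU4F2, a POU homeodomain factor of retinal ganglion cells, had 17658 bases (chr4:147551598-147569255) and 11.04. NEUROD1, a basic helix-loop-helix (bHLH) factor of neurons and pancreatic endocrine cells, had 16495 bases (chr2:182537082-182553576) and 12.4. LHX3, a LIM homeodomain factor of the pituitary and motor neurons, had 15454 bases (chr9:139081706-139097159) and 9.89.

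The remaining named peaks among the 20 widest were of mixed kinds. ADCYAP1, the gene of the neuropeptide PACAP, had 14978 bases and a fold enrichment of 15.1. VGLL2, a cofactor of TEAD factors in muscle, had 14186 bases and 9.95, and CCND2, the cell cycle gene of cyclin D2, had 14030 bases and 9.85. NEUROD2 had 13970 bases and 13.6. RFX6, a factor of pancreatic endocrine cells, had 13923 bases and 7.41, and POU4F1, a factor of sensory neurons, had 13352 bases and 6.34. The promoters printed above belong to SKOR2 with the widest peak and to NXPH1, POU4F2, NEUROD1 and LHX3 with peaks from 15454 to 17676 bases.

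Another 6 of the 20 had no gene name assigned. Among these, 4 lay at 2p11, near the centromere of chromosome 2. They were 20978 bases wide with a fold enrichment of 12.2 (chr2:91657476-91678453), 20910 bases with 15.8 (chr2:90437845-90458754), 15484 bases with 10.8 and 14011 bases with 6.84. Their −log10 q values of 55.7, 64.3, 36.1 and 19.01 include the highest of the 20 widest peaks. The others lay at 1q41, 17458 bases with a fold enrichment of 9.93, and at 8q12.3, 13939 bases with 4.78.

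Over all 63 peaks of 10 kb or more, 50 carried a gene name. These names were assigned after the positions were seen, so the counts by role are a description. The share of each role among all genes, or at narrower peaks, was not read. Transcriptional regulators numbered 26, with fold enrichments from 4.84 to 17.5 and a median of 9.64. The highest of them was EBF3, a factor of neuronal differentiation, with 17.5 over 11490 bases. Genes of synapses, channels and neuronal surfaces numbered 12. KCNN2, a calcium-activated potassium channel, had 17.5 over 10018 bases, CA10, a neurexin-binding protein, had 15.0 over 10542 bases, and CBLN2, a synapse organiser, had 13.95 over 10488 bases. GRIN3A, an NMDA receptor subunit, had 12.5 over 11183 bases, and SLC32A1, the vesicular GABA transporter, had 8.77 over 11861 bases. Signalling genes numbered 7, among them IGF2, an imprinted growth factor, with 13.6 over 10755 bases, and FGF14 with 13.3 over 10696 bases. The other 5 named genes had fold enrichments from 8.05 to 11.7.

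Not all very wide peaks were strong. A fold enrichment under 5 was found in 6 of the 63: PTPRD, a receptor tyrosine phosphatase of synapses, had 3.802 and TBX18, a T-box factor of heart and urinary tract, had 4.84. The other 4 lay at 8q12.3, 6p11.2, 1p36.32 and 6q12 without a gene name, and the lowest was 2.83 at 1p36.32. At the other end, 26 of the 63 had a fold enrichment of at least 10. By position, 8 of the 63 lay within 2 Mb of a centromere band and 5 within 2 Mb of a chromosome end. Chromosome 2 held 12 of them and chromosome 6 held 10, while chromosomes 3, 15, 21 and 22 held 0. The count for chromosome 2 includes the unnamed peaks at 2p11 described above, near its centromere. It also includes unnamed peaks of 11264 bases at 2p11.2 and of 11040 bases at 2p11.1. The count for chromosome 6 includes the unnamed peaks at 6p11.2 and 6q12. The names FOXD4 at 9p24.3 and FOXD4L1 at 2q13 belong to near-identical gene copies, so how reads were divided between them is uncertain.

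CpG number in the 250 bases before the start was looked up for the genes at these peaks, of which 42 of 50 had an entry. Their median was 16.5 CG, against 11 over all 26246 autosomal promoters of the table. At least 15 CG were present in 24 of the 42 (57.1%), against 42.96% of all promoters, and fewer than 5 in 5 of them (11.9%), against 35.1%. Those 5 were FOXD4L1, VSTM2A and PRMT8 with 1 CG each, ESR1 with 3 and DPP10 with 4. The highest numbers were 49 at SALL3 and 46 at EBF3 and ADGRB3. A count of this kind describes the start site chosen by RefSeq only, and no statement about PRC2 recruitment follows from it.

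Landmark genes of development gave a second view, from a table of 142 loci in 19 families with windows widened by 20 kb on each side. A peak was present at 139 of the 142 landmarks (97.9%), against 38.4% of 48007 tiled windows of 60 kb, the median length of the landmark windows. A peak of 5 kb or more was present at 44 (30.99%), against 1.19% of tiled windows. One of 10 kb or more was present at 13 (9.16%), against 0.152%. Tiles ran over whole chromosomes, so any stretch to which reads cannot map counts as a tile without a peak. The families were chosen as known Polycomb targets and with earlier results of these data known, and some windows, such as the HOX clusters and the protocadherins, are much longer than the tiles. TBX4 and HAND1, factors of limb and heart, were among the landmarks without any peak.

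The POU and paired-like, bHLH, LIM homeobox, and ONECUT and SKOR families held 10 of the 13 landmarks with a peak of 10 kb or more. Among the POU and paired-like loci 5 of 7 had a peak of 5 kb or more and 3 had one of 10 kb: POU4F2, POU4F1 and POU3F3, a factor of cortical neurons, the last with 10791 bases. Among the bHLH loci 5 of 10 reached 5 kb and 3 reached 10 kb, among them NEUROD1 and NEUROG3, the endocrine progenitor factor, with 12433 bases and a fold enrichment of 13.7. In the LIM homeobox family 5 of 12 reached 5 kb: LHX5 and LHX3, then ISL1, a motor neuron factor, with 8524 bases, LHX8 with 6645 and LHX1 with 5038. In the ONECUT and SKOR group 3 of 5 did, SKOR1 having 6450 bases with a fold enrichment of 10.8 and ONECUT1 and ONECUT2 staying at 2379 and 2072 bases.

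Members of one family thus differed widely. In the SOX family 4 of 8 reached 5 kb, from SOX21 with 8687 bases down to SOX2, a factor of neural progenitors, with 1134. In the Iroquois family IRX4, a heart ventricle factor, had 7643 bases with a fold enrichment of 14.5, and IRX5 had 559 bases with 3.40. In the PAX family PAX7, a muscle stem cell factor, had 7393 bases with 9.73, whereas PAX6, the eye factor, had 642 bases with 5.81 and PAX9 had 302 with 7.35. Among the NKX loci NKX6-2 had 6846 bases with 14.6 and NKX2-1, the thyroid and lung factor, 881 bases with 3.69. Among the forkhead loci FOXQ1 had 7542 bases with 15.3 and FOXF1 5940 with 4.36, and the other 9 stayed under 5 kb. Brain patterning loci reached 5 kb at 3 of 13, with GSX1 at 9158 bases and 13.5 and DBX1 at 10160 and 10.1.

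Broad peaks were absent from some families. None of the 5 GATA loci or the 3 DLX loci reached 5 kb. Over all 142 landmarks 30.99% did, and families of 5 or 3 loci are too few to tell a family trait from that share. The median widest peak was 1454 bases over the GATA loci and 2219 over the DLX loci. Among 9 mesenchymal loci only MSX2 reached 5 kb, with 7367 bases, and among 9 T-box loci only TBX18. The morphogens SHH, with 5455 bases and a fold enrichment of 10.9, and WNT3A, with 6400 bases and 10.3, reached it among 7 signalling loci. FGF8 had a single peak of 331 bases. At CDKN2A-CDKN2B, the tumour suppressor locus often silenced by Polycomb, a single peak covered 373 bases and had a fold enrichment of 3.101.

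Each of the HOX clusters held several separate peaks. Their windows were 150 to 250 kb long, and the autosomes together held 10.1 peaks per Mb. HOXA held 5 peaks with the widest 2338 bases, HOXB 12 with 2507, HOXC 9 with 4612 and HOXD 11 with 9897. Only HOXD passed 5 kb, and there the widest peak was 9897 of 21295 covered bases. The highest fold enrichment in any cluster was 5.31. The widest peaks of HOXA and HOXB had a −log10 q of only 1.78 and 1.77, and those of HOXC and HOXD had 6.06 and 5.84. The clustered protocadherins are genes of neuronal cell identity on chromosome 5, which held 15.1 peaks per Mb. Their window of 780 kb held 47 peaks, which covered 69227 bases together. The widest of these had 6356 bases, and the highest fold enrichment was 10.5.

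The share of peaks that lay in a landmark window went up with width, from 0.844% of peaks under 0.5 kb and 1.7% at 1 to 2 kb to 7.002% at 5 to 10 kb and 20.6% at 10 kb or more. A wider peak also has more bases with which to touch a window. The landmark windows cover 11.1 Mb, and 426 of the 29018 peaks, 1.47%, touched one. Landmark genes with a peak of 5 kb or more had a median of 22 CG before the start (32 of 41 matched) and those without had 20 (59 of 88 matched), medians that lie close together.

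**Figure D3:**
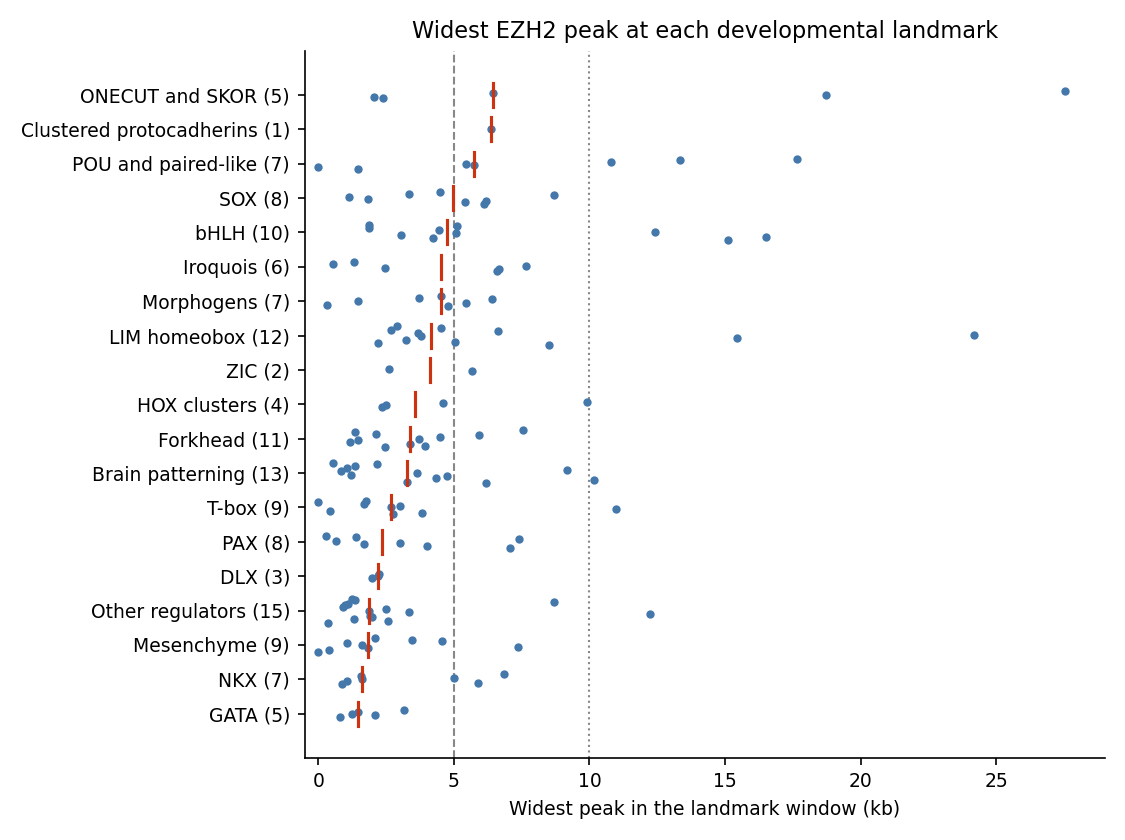
Widest EZH2 peak in kb (x) at each of 142 landmark loci, by family (y, number of loci in brackets), with the family median as a red line and limits of 5 and 10 kb as broken lines. The ONECUT and SKOR, POU and paired-like, bHLH and LIM homeobox families hold 10 of the 13 loci at 10 kb or more. The GATA and DLX loci all lie under 5 kb, as do most of the 142 loci.

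Neighbouring peaks were unevenly spaced. Over 28978 gaps between neighbours on the same chromosome, leaving out those that cross from the short to the long arm, the median gap was 43.1 kb and the mean 91.4 kb with an SD of 137 kb, a coefficient of variation of 1.497. Gaps under 5 kb made up 14.5% and those under 10 kb 22.5% (95% Wilson interval 22.05% to 23.02%). Gaps per kb of distance fell from 949 below 2 kb to 468 between 5 and 10 kb and 105 between 50 and 100 kb. The first value is divided by the full 2 kb, part of which holds no gap, so it is a low estimate. The shortest gap was 1045 bases, so no neighbours lay closer than that in the deposited list, and a dense region broken by shorter gaps would appear here as 1 peak. At the other end 73 gaps exceeded 1 Mb, the longest being 2.31 Mb at 4q22.3, followed by 2.19 Mb at 7q11.21 and 1.98 Mb at 4q13.1.

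Broad peaks had nearer neighbours than narrow ones. The nearest peak lay within 5 kb for 23.4% of peaks under 1 kb (95% Wilson interval 22.7% to 24.0%), for 50.2% of peaks of 5 kb or more (45.9% to 54.5%) and for 55.6% of the 63 peaks of 10 kb or more (43.3% to 67.2%). Median distances to the nearest peak were 19.1 kb, 4.91 kb and 3.54 kb. No other peak lay within 50 kb of either edge for 26.2% of peaks under 1 kb, 15.6% of those of 5 kb or more and 4.76% of those of 10 kb or more. The flanks of the widest class held a mean of 3.86 other peaks and 6.43 kb of covered bases, against 1.98 peaks and 2.41 kb for peaks under 1 kb.

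Few broad peaks had another broad one nearby. Another peak of 5 kb or more lay within 50 kb of 7.5% of the peaks of that width (5.54% to 10.1%), of 11.1% of those of 10 kb or more (5.49% to 21.2%) and of 4.47% of those under 1 kb (4.18% to 4.78%). The 11.1% stands for 7 peaks. These include neighbours at 2p11, chr2:90404928-90416191 with chr2:90437845-90458754 and chr2:91624370-91638380 with chr2:91657476-91678453. Its interval takes such neighbours to be independent. The widths of adjacent peaks had a rank correlation of 0.020 over all gaps and 0.022 over gaps under 5 kb, and their fold enrichments 0.068 and 0.087. At SKOR2 and EBF3 the next peak lay 1315 and 1094 bases away on the left. By contrast, NEUROG3 and OLIG3, a factor of the dorsal spinal cord, had no other peak within 50 kb.

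**Figure D4:**
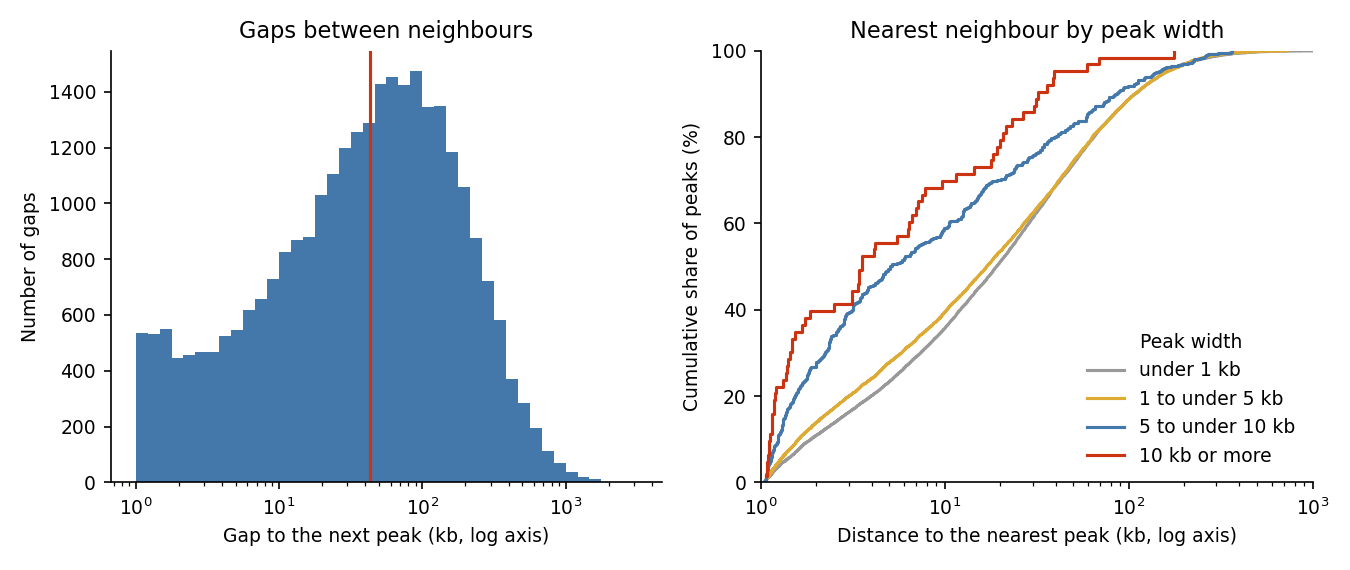
Left, number of gaps between neighbouring peaks by gap length in kb (x, log axis), with the median of 43.1 kb as a red line. Right, cumulative share of peaks (%) by distance in kb to the nearest peak (x, log axis) for 4 width ranges. The curves of peaks of 5 kb or more lie to the left of those of narrower peaks over distances up to about 50 kb.

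Peaks up to 5 kb apart were joined into domains, which gave 24830 domains. Of these, 21628 held a single peak, and 74.5% of all peaks were such singles. Pairs numbered 2530, and the 672 domains of 3 or more peaks held 8.03% of peaks (95% Wilson interval 7.72% to 8.35%) and 10.7% of covered length. The largest held 9 peaks. A peak of 5 kb or more was present in 1.20% of singles, 5.77% of pairs, 12.2% of domains of 3 and 30.99% of domains of 5 to 9, although domains of more peaks also have more chances to hold one. Domains of 3 or more had a median span of 9.83 kb, of which a median of 42.3% was covered.

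In all, 129 domains covered at least 10 kb. A single peak made up 28 of these, and 66 contained no peak of 10 kb, so they reached that length only by joining. At least 20 kb was covered in 12. The domain with the most covered bases lay at 19p13.2 (chr19:8852139-8898279), with 9 peaks that covered 32873 bases, 71.2% of its span, and a highest fold enrichment of only 3.87. SKOR2 came next with 2 peaks and 29179 bases, 95.7% of the span. At 1p36.32 (chr1:2594015-2630693) 8 peaks covered 24805 bases with a highest fold enrichment of 3.71. The 2p11.1 and 2p11.2 positions supplied 3 of the 10 domains with the most covered bases, LHX5 was the fifth with its single peak, and 6q12 the eighth with 22054 bases and at most 4.66.

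Domains made of many peaks therefore came in weak and strong forms. TFAP2D, a factor of the AP-2 family, lay at a domain of 7 peaks at 6p12.3 (chr6:50662661-50695715) with 22050 bases covered and a fold enrichment up to 11.2. At 9q32 (chr9:115818544-115852165) 9 peaks, none above 4341 bases, covered 21680 bases with a highest fold enrichment of 10.6. By contrast, 8 peaks at CA10 on 17q21.33 covered 7195 bases, 26.9% of the span, with at most 3.79, and 7 peaks at PTPRD on 9p23 covered 10271 bases with at most 3.67. Further domains of 7 peaks lay at 19q13.42, 6q14.1 and 5p15.33 and had highest fold enrichments of 4.23, 4.83 and 5.06.

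**Figure D5:**
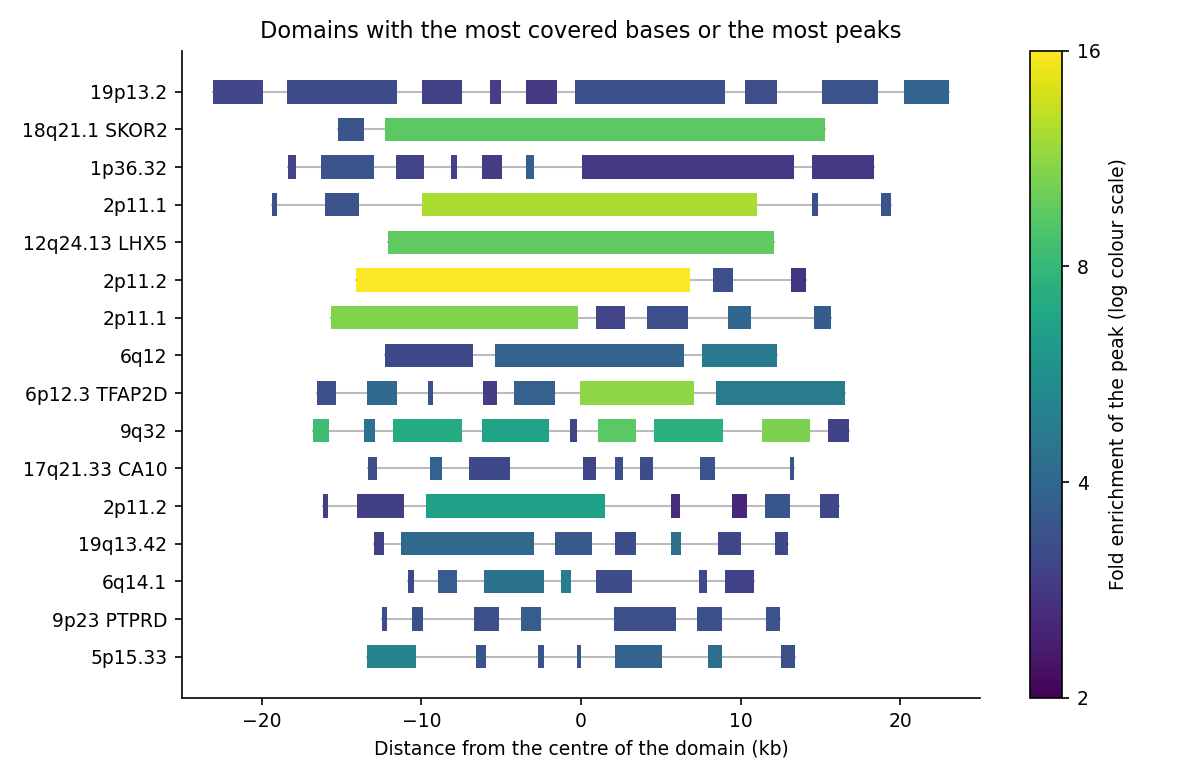
The 16 domains with the most covered bases or the most peaks, each centred (x, distance from the domain's centre in kb), with peaks as bars coloured by fold enrichment on a log scale from 2 to 16. SKOR2, LHX5 and the 3 domains at 2p11 among the 10 with the most covered bases each have 1 broad peak with a fold enrichment above 9, whereas 19p13.2 and 1p36.32 are series of peaks with fold enrichments under 4.

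In fixed windows of 100 kb, 48.2% of 28823 windows held no peak midpoint and 26.8% held 1. Windows ran over whole chromosomes, so any stretch to which reads cannot map counts as empty. The mean was 1.01 peaks and the variance 2.02, a ratio of 2.004. The 817 windows with 5 or more peaks, 2.84% of windows, held 17.9% of peaks. The most covered windows were at 2p11.2 with 42363 bases, 2p11.1 with 38512, 6q12 with 36639, 19p13.2 with 35115 and SKOR2 with 31574. MARCHF11 at 5p15.1, a ubiquitin ligase gene, followed with 30263 bases in 16 peaks, the highest number in any window, shared with 1p21.1. ELAVL2 at 9p21.3, a neuronal RNA-binding protein gene, had 25774 bases in 14 peaks, and another window at 5p15.1 had 24877 in 15.

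Density differed between chromosomes more than width did. There were 10.1 peaks per Mb over all autosomes, 4.54 on chromosome 4, the sparsest, 15.1 on chromosome 5 and 21.8 on chromosome 6, the densest. Median width stayed between 735.5 and 813 bases and median fold enrichment between 3.32 and 3.58, the lowest being on chromosome 6. Peaks of 5 kb or more per 100 Mb ran from 6.23 on chromosome 21 to 35.1 on chromosome 6, and chromosome 18 was next at 32.0. As a share of its own peaks chromosome 18 had the most broad peaks, 2.78%, against 1.61% on chromosome 6. Chromosome 6 was thus the densest in all peaks and in broad ones, whereas chromosome 18 had 11.5 peaks per Mb of any width, against 10.1 over all autosomes.

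Light and dark Giemsa bands, which reflect base composition and gene density, had similar densities. Light bands had 10.3 peaks per Mb and 19.4 peaks of 5 kb or more per 100 Mb, and the darkest class had 11.9 and 20.4. Centromere bands had 3.47 peaks per Mb, although 4 of the 63 widest peaks lay in them, all in the single band 2p11.1. Bands of variable heterochromatin had 1.28 peaks per Mb and 4.08 broad peaks per 100 Mb, and the stalks of the acrocentric chromosomes held 0 peaks. All these densities divide by the full length of each band, including any stretch to which reads cannot map. How much of each band that is was not read, so the low values cannot be read as less EZH2.

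The H3.1-K27M list, from cells with a histone whose lysine 27 is replaced by methionine and with their own HRP control, serves here only to show where these width classes differ. The share of H3.1-WT peaks that shared at least 1 base with an H3.1-K27M peak was 16.7% under 0.5 kb, 28.1% at 0.5 to 1 kb, 43.1% at 1 to 2 kb, 72.7% at 2 to 5 kb and 96.3% at 5 to 10 kb. All 63 peaks of 10 kb or more did (95% Wilson interval 94.3% to 100%). Over all widths 10067 of the 29018 peaks did, or 34.7%. A wider peak offers more bases to be met, for which these shares were not corrected. How much of each peak was covered varied: of the 27533 bases at SKOR2 25958 were covered, and of the 24168 at LHX5 22660, but of the 10992 at TBX18 only 2588 and of the 13923 at RFX6 7566.

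Broad peaks were less rare in the H3.1-K27M list and lower in fold enrichment. It held 705 autosomal peaks of 5 kb or more among 28323, 2.49% (2.31% to 2.68%), and 134 of 10 kb or more against 63. Their median fold enrichment was 4.05 at 5 kb or more, against 7.08 in H3.1-WT, while peaks under 1 kb had 3.31 against 3.35. With 1 library per antibody and genotype and unknown depth, genotype and library cannot be told apart in these differences.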

How the data were processed

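CUT&RUN libraries for EZH2 and for an HRP secondary antibody control were made from H3.1-WT HEK293 cells, 1 each. Build hg19 and the tools MACS2, Bowtie2 2.3.5.1, Picard, deepTools and cutadapt are listed in the submitters' processing notes, without roles or settings. The authors deposited broad peaks called per genotype, each with a fold enrichment, a linear ratio over background. The authors also deposited a −log10 q per peak. No read counts were used, so depth and the precision it gives are unknown.

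The members, the landmark families and the limits were chosen with earlier results of these data known. All autosomal rows entered; 0 peaks ended past an hg19 chromosome end. Positions are 1-based. A peak took the Giemsa band of its midpoint from circlize 0.4.16. Gaps run edge to edge, domains join gaps of up to 5 kb, and overlap needs 1 base. No model was fitted and no test run. Named regions were the 20 widest peaks, the 10 domains with the most covered bases, the 10 with the most peaks, the 10 most covered windows of 100 kb and the 5 peaks of 5 kb or more with the highest fold enrichment. Landmark genes come from a hand-written table; names and roles for other peaks were added after positions were seen. Joining and gaps were tested on 5849 simulated peaks and against bedtools 2.31.1, with 0 differences. Alternatives were q minimums, other limits and joining distances, chromosome X added, and no peaks near centromeres or ends. Values were computed in Python 3.11.15 (pandas 2.3.3, numpy 2.4.6, scipy 1.17.1, matplotlib 3.10.9). The H3.1-K27M list was used for overlap, width classes and covered bases at named peaks. A few loci are counted but not reported here by name.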

Additional observations from a re-analysis of the deposited data

How the results depend on the processing

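Of 49 alternative values, 17 stayed within the interval of the reported value, 32 moved and 0 reversed. For covered share, correlation and fold ratio the interval was a chosen margin of 10%. Reversed meant a change of sign, which only the rank correlation could have shown, because all other values are positive by definition. A minimum −log10 q of 2 or 5 moved the share of peaks of 5 kb or more from 1.79% to 4.15% or 20.1%, their share of covered length from 11.6% to 19.8% or 46.5%, the median width from 778 to 1017 or 2648 bases, the median gap from 43.1 to 113 or 682 kb, the share of gaps under 10 kb from 22.5% to 10.8% or 4.49%, the share of peaks in domains of 3 or more from 8.03% to 2.26% or 0.791%, and the fold ratio of broad over narrow peaks from 2.11 to 1.84 or 1.49. The share of broad peaks moves here because narrow peaks are removed, and the gaps and domains because fewer peaks remain. The rank correlation of width with fold enrichment was 0.277 and 0.507 under the same minimums. As a mean within strata of −log10 q it was 0.069, with each stratum given equal weight whatever its number of peaks. The strata under a −log10 q of 5 had values from −0.046 to 0.033. Those of 5 to 10, with 1314 peaks, and of 10 or more, with 710, had 0.136 and 0.328. A broad limit of 4 kb gave 3.15% and one of 6 kb 1.16%, and a limit of 10 kb a fold ratio of 2.88. Joining within 2, 10 or 20 kb put 2.06%, 16.1% or 28.6% of peaks in domains of 3 or more. Leaving out peaks near centromeres and ends, or adding chromosome X, gave median gaps of 44.4 and 42.1 kb, 21.9% and 23.1% of gaps under 10 kb, and 7.60% and 8.44% of peaks in such domains; between midpoints the median distance was 44.3 kb and 20.8% lay under 10 kb. Joining peaks within 1 kb changed nothing, since no gap is that short. Among the landmark alternatives, all chosen after seeing the data, windows widened by 50 kb held a peak at 100% of loci and a −log10 q of at least 5 left one at 54.9%, with broad peaks at 25.4%. No paired analysis was possible because the list comes from 1 EZH2 library and 1 control. The effect of depth could not be measured, since the list holds no read counts.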
